A study of Homo sapiens with 6 samples.

Results

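The histone cluster genes are the protein-coding genes that encode the linker histone H1 and the core histones H2A, H2B, H3 and H4 in multi-gene clusters of the human genome. They were taken as every protein-coding row of the gene table whose name, in the older nomenclature, begins with HIST1H, HIST2H, HIST3H or HIST4H. This gave 71 of 58735 genes, of which 55 belong to the HIST1 cluster on chromosome 6, 12 to HIST2 and 3 to HIST3 on chromosome 1, and 1 (HIST4H4) lies on chromosome 12. By class, 6 encode H1, 17 encode H2A, 18 encode H2B, 15 encode H3 and 15 encode H4.

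RNA was sequenced from ES2, a human ovarian cancer cell line labelled as wild type in genotype and as high-grade serous carcinoma in cell type. The 3 siUAP1 libraries came from cells transfected with small interfering RNA (siRNA) against UAP1, which encodes the enzyme that makes UDP-N-acetylglucosamine, the sugar donor for protein glycosylation. The 3 control libraries came from cells transfected with a control siRNA. All cells went through the same transfection, had their medium changed 6 hours later and were collected 48 hours after transfection, and the labels name 2 UAP1 siRNAs without saying which library received which.

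Core histones form the protein spool of the nucleosome, around which DNA is wrapped, and H1 binds the DNA that enters and leaves it. Most cluster genes are transcribed during S phase, when the genome is copied, and their mRNAs end in a conserved stem-loop in place of a poly(A) tail. The stem-loop is bound by the protein SLBP and is cut downstream with the help of the U7 small nuclear RNA. Some cluster genes also make longer mRNAs that pass the stem-loop and are polyadenylated, and such mRNAs are known from differentiating and resting cells. A library made from poly(A) RNA therefore captures mainly the polyadenylated form. The labels give the molecule as polyA RNA, while the protocol names poly(A) enrichment or rRNA depletion without saying which was used. In bulk RNA, fewer cells making a transcript and less of it per cell cannot be told apart.

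The libraries held 23727266, 25972582 and 25909989 counts (siUAP1 replicates 1 to 3) and 21267240, 25054159 and 24842621 counts (control replicates 1 to 3). UAP1 had 521, 608 and 642 counts in the siUAP1 libraries, against 7341, 9081 and 10848 in the control libraries. In edgeR's quasi-likelihood test it fell by 4.03 on the log2 scale (SE 0.136, adjusted p = 6.12e-06). Libraries with the same replicate number resembled each other across all genes, so that fits within replicate numbers are given where they change a call. Of the markers of the labelled cell type, KRT7, KRT8 and KRT18 had 2962 to 16979 counts per library and PAX8 and WT1 had 14 to 60, whereas MUC16 was at 0 in all 6 libraries and EPCAM and MSLN had at most 6. Of the markers of other cell types, CD3E, HBA1 and DCN (T cells, red cells and fibroblasts) were at 0 in all 6 libraries. The other leukocyte, erythroid and fibroblast markers apart from COL1A1 (PTPRC, CD14, LYZ, HBB, ALAS2, COL3A1 and LUM) had at most 15 counts in a library, and the endothelial markers PECAM1 and VWF had 19 to 68 and 7 to 40. CDH5, endothelial cadherin, had 2943 to 4364 counts, and COL1A1, type I collagen, had 18103 to 61524.

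Histone cluster transcripts were scarce. Together the 71 genes took 1457, 750 and 906 counts in the siUAP1 libraries, against 754, 571 and 590 in the control libraries. These were 0.00614%, 0.00289% and 0.0035% of the siUAP1 counts and 0.00355%, 0.00228% and 0.00238% of the control counts. The exact 95% binomial intervals ran from 0.00269% to 0.00646% over the siUAP1 libraries and from 0.0021% to 0.00381% over the control libraries, and cover counting error only. The share was highest in replicate 1 of each group, and the lowest siUAP1 share was below the highest control share.

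Of the 71 genes, 57 had at least 1 count and 14 had none in any library, where a count of 0 allows up to 0.0204 CPM (counts scaled to the library total) over the 6 libraries together. Only 15 passed the filter on low counts and could be tested, and these held 4442 of the 5028 counts (88.4%). HIST1H2BK with 954, HIST3H2A with 682, HIST1H4I with 566 and HIST1H1C with 542 counts made up 54.6% of the total. The 56 genes that were not tested had at most 47 counts over all libraries (HIST1H1E) and at most 19 in any one library.

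Most members that could be tested are annotated with a long 3′ end. In GENCODE release 29, whose gene ends are those of the table for all 71 genes, 29 genes have a transcript that goes on for more than 100 bases after the stop codon, and 13 of these were tested. None of the 7 genes with a shorter stretch was tested, and neither were 33 of the 35 genes annotated with their coding part alone. The exceptions were HIST1H2BK and HIST1H1C. The median total over 6 libraries was 36 counts for genes with a long 3′ end, 8 for those with a short one and 5 for those annotated without any. Neither these counts nor the filter take gene length into account. In FPKM (counts divided by gene length and library size) the medians were closer, at 0.130, 0.111 and 0.0824 in the same order. How reads beyond the annotated ends were counted is not given in the sources used here.

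**Figure D1:**
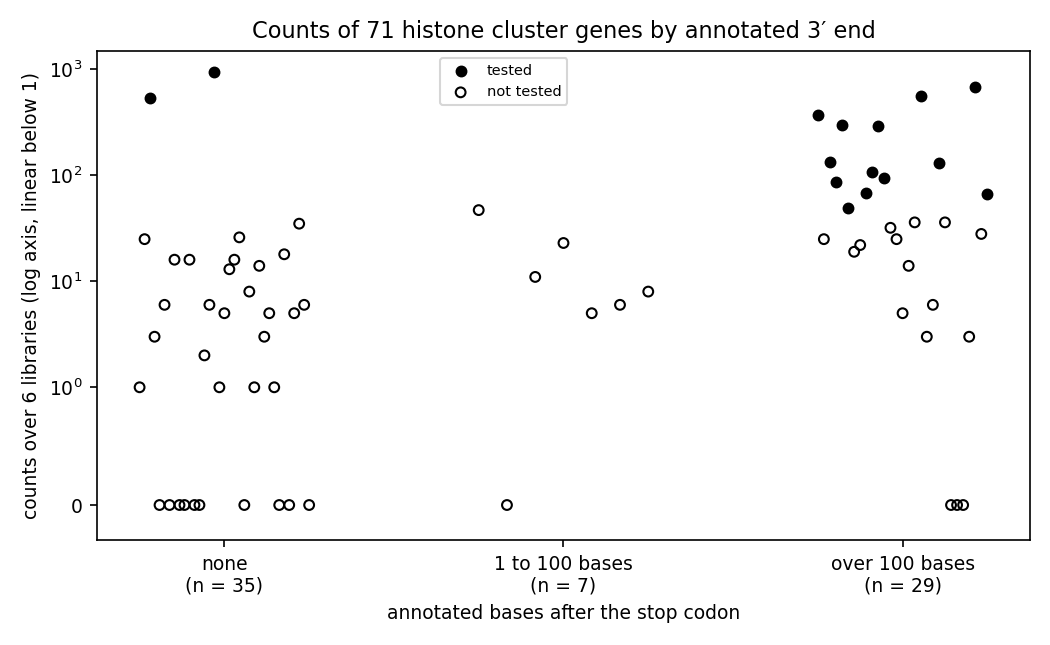
Counts of each of the 71 histone cluster genes summed over the 6 libraries (vertical axis, logarithmic and linear below 1), grouped by the annotated length after the stop codon; filled points were tested. 13 of the 15 tested genes have over 100 annotated bases after the stop codon, and the others (HIST1H1C and HIST1H2BK) have none. Counts are not divided by gene length.

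The stem-loop itself was found after the stop codon in annotated transcripts of 26 of the 71 genes, 9 of them tested. The 35 genes annotated with their coding part alone had no bases there to search. The search took 16 bases with paired arms that begin with GG and end in CC around a set loop, and other forms would be missed. In the 9 tested genes the transcript continued for 169 to 1761 bases beyond the stem-loop, so that these annotated mRNAs are the long form. Of 4 stem-loop versions, 17 H2A, H2B and H3 genes shared the first below, 5 H4 genes the second (HIST4H4), and HIST1H4I, HIST2H4A and HIST2H4B the third, while HIST1H2AG alone had the fourth. The sequences are shown because they define the histone mRNA end; capitals mark the 16 bases of the stem-loop and lower case the 5 bases on each side, 5′ to 3′, in the GENCODE 29 transcripts.
HIST3H2A: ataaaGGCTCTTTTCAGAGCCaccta
HIST4H4: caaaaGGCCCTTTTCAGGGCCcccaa
HIST1H4I: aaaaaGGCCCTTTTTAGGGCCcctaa
HIST1H2AG: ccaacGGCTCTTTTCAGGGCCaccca
HIST1H2AC and HIST2H2BE carry the same 16 bases as HIST3H2A:
HIST1H2AC: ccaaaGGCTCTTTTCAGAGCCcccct
HIST2H2BE: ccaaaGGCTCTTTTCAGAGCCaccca

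RNAs that are made without a poly(A) tail were examined beside the histone transcripts. Of 23 rows for such RNAs, 15 were at 0 in every library, among them RN7SK, RMRP, RPPH1 and the U7 gene RNU7-1. The other 8 had counts. The most abundant, RN7SL2, the RNA of the signal recognition particle, had 3064, 2837 and 4303 counts in siUAP1 libraries, against 3918, 1637 and 3626 in control libraries. Rows annotated as small nuclear RNA summed to 23.0, 35.6 and 22.9 CPM (counts scaled to TMM-adjusted library totals) in siUAP1 libraries, against 25.4, 39.9 and 29.04 CPM in control libraries. These sums were highest in replicate 2 of both groups, in which the histone cluster sum was lowest. RN7SL2 went the other way and was lowest in replicate 2 of both groups. Their part in the histone values was not tested.

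Summed over the 71 genes, the level was 61.0, 28.7 and 35.6 CPM in siUAP1 libraries and 35.5, 22.4 and 24.2 CPM in control libraries. The means were 41.8 ± 17.0 CPM and 27.4 ± 7.07 CPM (siUAP1 and control, SD, n = 3 each), a ratio of 1.53. The groups overlapped, because siUAP1 replicate 2 lay below control replicate 1, but within each replicate number the siUAP1 library was higher, by 1.72, 1.28 and 1.47 times. Leaving out HIST1H2BK and HIST1H4I, the ratio of means was 1.21, and the ratios within replicate numbers were 1.36, 0.987 and 1.18. Without siUAP1 replicate 1 the log2 ratio of the summed level of all members was 0.23, against 0.61 with all libraries. The sums are given without a test.

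Most of the summed difference lay in HIST1H2BK and HIST1H4I. The H2B genes summed to 27.96, 11.6 and 15.9 CPM in siUAP1 libraries, against 14.9, 8.57 and 8.89 CPM in control libraries. Without HIST1H2BK they averaged 8.76 ± 4.51 CPM in siUAP1 and 7.53 ± 2.76 CPM in control libraries (SD, n = 3 each), and the groups overlapped. The H4 genes summed to 9.38, 4.94 and 6.12 CPM in siUAP1 libraries, against 3.81, 2.91 and 2.66 CPM in control libraries, the only class whose groups did not overlap. That rested on HIST1H4I, since the other 14 H4 genes had 47, 25 and 22 counts in siUAP1 libraries, against 27, 26 and 16 in control libraries, and overlapped. The H1 genes averaged 4.99 CPM in siUAP1 and 3.49 CPM in control libraries, the H3 genes 2.05 and 1.31 CPM (siUAP1 and control), and the H2A genes 9.40 and 8.65 CPM (siUAP1 and control). The H1, H2A, H2B and H3 sums overlapped between the groups.

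Some cell type markers were, like the summed level, higher in siUAP1 within each replicate number, and others were not. COL1A1 was at 1742, 2355 and 1361 CPM in siUAP1 libraries, against 851.6, 1450 and 772.8 CPM in control libraries. KRT7, KRT8, KRT18 and PAX8 were likewise higher in siUAP1 in each replicate number. PAX8 was at 2.51, 0.727 and 1.18 CPM in siUAP1 libraries, against 1.79, 0.550 and 0.696 CPM in control libraries. COL1A1, KRT8 and KRT18 were highest in replicate 2 of each group, where the histone cluster sum was lowest. WT1 was lower in siUAP1 in replicates 1 and 3 (1.30 and 1.81 against 1.74 and 2.46 CPM). CDH5 was nearly equal within each number (143.1, 131.1 and 171.3 against 138.4, 129.8 and 167.9 CPM). The other fibroblast markers, COL3A1, LUM and DCN, were at or near 0. The part of these genes in the histone values was not tested.

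**Figure D2:**
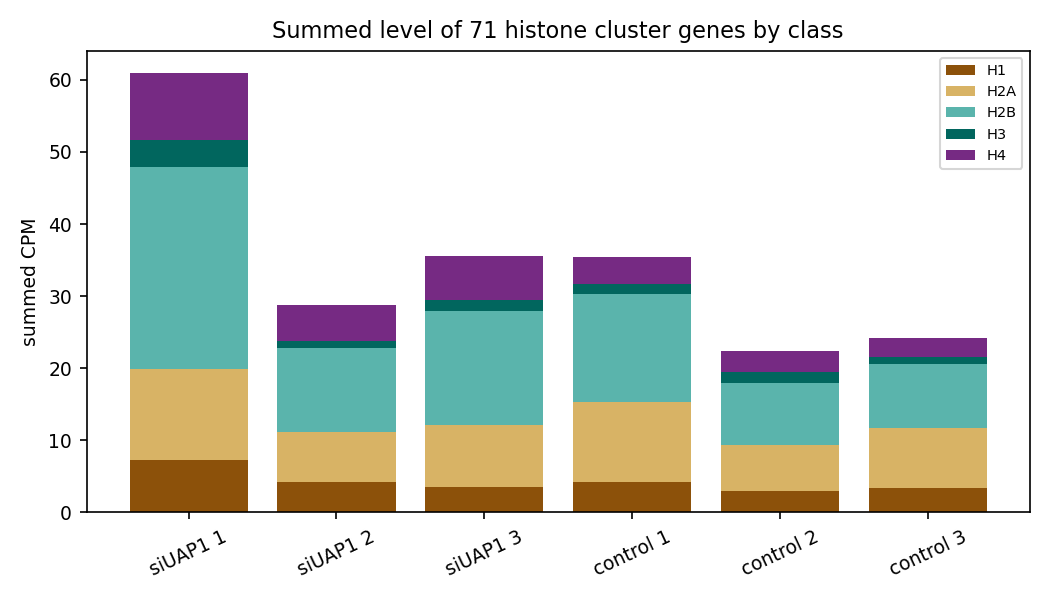
Summed CPM of the 71 histone cluster genes in each library, siUAP1 replicates 1 to 3 left of control replicates 1 to 3, with the bar divided by histone class. siUAP1 replicate 1 stands highest at 61.0 CPM, and control replicate 2 lowest at 22.4 CPM.

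In the comparison of siUAP1 with control by group alone, none of the 15 tested genes passed an adjusted p of 0.05 in edgeR's quasi-likelihood test, where 0.108% of all 15768 tested genes did (0.0317% higher and 0.0761% lower in siUAP1 cells). At an unadjusted p under 0.05 there were 2 members and 1125 genes in all, DESeq2 called 2 members (HIST1H2BK and HIST1H4I), and limma on log2 FPKM called 0. Within replicate numbers, HIST1H2BK and HIST1H4I were called higher in siUAP1 cells and no member was called lower, where 16.2% of all genes were called in either direction with 9.07% higher and 7.14% lower. A count of 2 in 15 is near that background. The median log2 fold change of the 15 was 0.36 within replicate numbers, against 0.00 (-0.00295) over all genes tested. HIST1H2BK and HIST1H4I were also the only members whose groups did not overlap in CPM, which 12.4% of all tested genes did in either direction and 6.74% with siUAP1 above control.

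HIST1H2BK, which encodes an H2B protein, was the most highly expressed member per length, at 25.3 ± 10.6 FPKM in siUAP1 and 8.48 ± 2.14 FPKM in control libraries (SD, n = 3 each; FPKM are counts divided by gene length and library size). Its counts were 345, 185 and 196 in siUAP1 libraries, against 89, 68 and 71 in control libraries, or 14.4, 7.08 and 7.70 CPM against 4.19, 2.67 and 2.91 CPM. Every siUAP1 library was above every control library, and replicate 1 was the highest of its group in both. By group, the siUAP1 libraries were higher by a log2 of 1.58 (SE 0.32, edgeR adjusted p = 0.168), and within replicate numbers by 1.55 (SE 0.152, edgeR adjusted p = 4.57e-08), a 2.92-fold difference. It made up 23.7%, 24.7% and 21.6% of all histone cluster counts in siUAP1 libraries, against 11.8%, 11.9% and 12.03% in control libraries. The exact 95% binomial intervals of these shares ran from 19.0% to 27.9% over the siUAP1 libraries and from 9.37% to 14.9% over the control libraries, and cover counting error only.

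HIST1H4I, which encodes an H4 protein, had 177, 104 and 134 counts in siUAP1 libraries, against 54, 48 and 49 in control libraries. In CPM these were 7.41, 3.98 and 5.26 in siUAP1 libraries and 2.54, 1.89 and 2.01 in control libraries, again without overlap. By group it was higher by a log2 of 1.37 (SE 0.288, edgeR adjusted p = 0.181), and within replicate numbers by 1.34 (SE 0.193, edgeR adjusted p = 1.43e-05).

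HIST1H2BK and HIST1H4I are neighbours, and their counts cannot be taken as independent. The table's HIST1H2BK is the coding part alone, 381 bases on the minus strand (chr6:27146418-27146798, GRCh38), while HIST1H4I lies on the plus strand at chr6:27138588-27139881. In RefSeq, HIST1H2BK (now named H2BC12) spans 8566 bases on the minus strand and contains HIST1H4I (now H4C9). Whether reads were counted by strand is not given in the sources used here. Whether exons of the long HIST1H2BK transcript cover HIST1H4I was not examined either. Reads of HIST1H4I and of that transcript therefore cannot be told apart with certainty. The ratio of HIST1H4I to HIST1H2BK counts was 0.513, 0.562 and 0.684 in siUAP1 libraries, against 0.607, 0.706 and 0.690 in control libraries. HIST1H2BK also shares 28.4% of its 100-base windows with H2BFS, a near-identical H2B gene, which had at most 4 counts in any library.

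The gene that starts opposite HIST1H2BK was barely detected. HIST1H2AH, an H2A gene whose start lies 331 bases away on the plus strand, had 1, 3 and 0 counts in siUAP1 libraries, against 2, 9 and 1 in control libraries, too few to test. RefSeq promoters (250 bases before to 50 after the start, build GRCh38.p14) are shown for HIST1H2BK, HIST1H4I and HIST1H2AC. HIST1H2AC was the tested H2A gene with the highest fold change. The promoters are shown to compare their histone promoter motifs. The HIST1H4I window follows the RefSeq start and lies inside the gene as given in the table, whose annotated start is further upstream. Capitals mark, on either strand, the TATA box (TATAAA), the box known as CCAAT after its letters, and the octamer (ATTTGCAT), and overlapping matches run together.
HIST1H2BK, chr6:27146809-27147108, minus strand: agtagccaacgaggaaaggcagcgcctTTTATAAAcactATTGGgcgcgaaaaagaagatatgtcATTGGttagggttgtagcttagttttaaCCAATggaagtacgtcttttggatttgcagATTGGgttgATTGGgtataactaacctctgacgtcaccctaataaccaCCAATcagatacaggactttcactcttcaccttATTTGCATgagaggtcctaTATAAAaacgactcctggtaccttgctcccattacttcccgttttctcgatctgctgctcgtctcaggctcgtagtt
HIST1H4I, chr6:27139032-27139331, plus strand: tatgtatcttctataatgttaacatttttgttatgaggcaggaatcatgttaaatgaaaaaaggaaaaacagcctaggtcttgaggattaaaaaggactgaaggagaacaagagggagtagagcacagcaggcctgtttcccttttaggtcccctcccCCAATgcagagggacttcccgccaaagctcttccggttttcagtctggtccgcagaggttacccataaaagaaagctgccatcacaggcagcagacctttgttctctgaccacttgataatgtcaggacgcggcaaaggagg
HIST1H2AC, chr6:26123922-26124221, plus strand: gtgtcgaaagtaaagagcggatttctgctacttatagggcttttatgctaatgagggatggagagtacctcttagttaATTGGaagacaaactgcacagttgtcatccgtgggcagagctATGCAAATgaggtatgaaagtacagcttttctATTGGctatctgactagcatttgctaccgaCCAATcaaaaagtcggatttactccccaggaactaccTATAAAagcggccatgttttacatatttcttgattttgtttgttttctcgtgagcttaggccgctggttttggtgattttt

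The HIST1H2BK window held TATAAA 3 times, CCAAT 6 times and the octamer once, the HIST1H4I window held CCAAT once and neither of the other motifs, and the HIST1H2AC window held TATAAA once, CCAAT 3 times and the octamer once. Of the 61 members with a RefSeq promoter, 65.6% held TATAAA on either strand, against 11.95% of 27305 RefSeq promoters. For CCAAT the shares were 83.6% of member promoters and 35.7% of all, and for the octamer 42.6% and 1.80% (members and all). The octamer was found in 11 H2A, 14 H2B and 1 H3 promoter and in no H1 or H4 promoter. Of the 13 H4 promoters, 3 held CCAAT, HIST1H4I among them, and 7 held TATAAA. Of the 15 tested genes, 10 held TATAAA, 14 CCAAT and 8 the octamer. These are matches of letters and are given as a description.

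The other members were not called. HIST3H2A, an H2A gene in the small HIST3 cluster, was nearly equal in the groups, with 107, 131 and 111 counts in siUAP1 libraries against 139, 94 and 100 in control libraries. Its log2 fold change was -0.05 (SE 0.258) by group and -0.01 (SE 0.186, edgeR adjusted p = 0.977) within replicate numbers. HIST1H1C, which encodes the linker histone H1.2 and was the only H1 gene tested, had 153, 96 and 74 counts in siUAP1 libraries and 85, 60 and 74 in control libraries, a log2 fold change of 0.43 within replicate numbers (SE 0.198, edgeR adjusted p = 0.15). Its level was 6.67 ± 2.82 FPKM in siUAP1 and 4.84 ± 1.29 FPKM in control libraries (SD, n = 3 each).

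HIST1H2AC and HIST1H2BC form a head-to-head pair of an H2A and an H2B gene whose starts lie 219 bases apart. HIST1H2AC had 145, 19 and 79 counts in siUAP1 libraries, against 67, 28 and 30 in control libraries. It was higher in siUAP1 in replicates 1 and 3 and lower in replicate 2, and its log2 fold change within replicate numbers was 0.73 (SE 0.282, edgeR adjusted p = 0.0827). Without both libraries of replicate 2 it was 1.10 (edgeR adjusted p = 0.00048), without those of replicate 1 or 3 it was 0.52 and 0.43 (edgeR adjusted p = 0.445 and 0.544). HIST1H2BC had 12, 9 and 27 counts in siUAP1 libraries and 16, 7 and 16 in control libraries, a log2 fold change of 0.17 (SE 0.456, edgeR adjusted p = 0.861).

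The second head-to-head pair with both genes tested was HIST1H2AG, an H2A gene, and HIST1H2BJ, an H2B gene, with starts 292 bases apart. HIST1H2AG had 28, 8 and 9 counts in siUAP1 libraries, against 21, 19 and 50 in control libraries. It had the most negative fold change of the tested members, a log2 of -1.10 within replicate numbers (SE 0.452, edgeR adjusted p = 0.104), and replicate 1 went the other way. Without both libraries of replicate 1 it was -1.98 (edgeR adjusted p = 0.00471), and without those of replicate 3 it was -0.38 (edgeR adjusted p = 0.741). HIST1H2BJ had 36, 11 and 16 counts in siUAP1 libraries against 21, 11 and 12 in control libraries, with a log2 of 0.36 (SE 0.413, edgeR adjusted p = 0.638). With all libraries and the filter on low counts, no gene of either pair passed the edgeR test. The difference between partners was not tested.

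**Figure D3:**
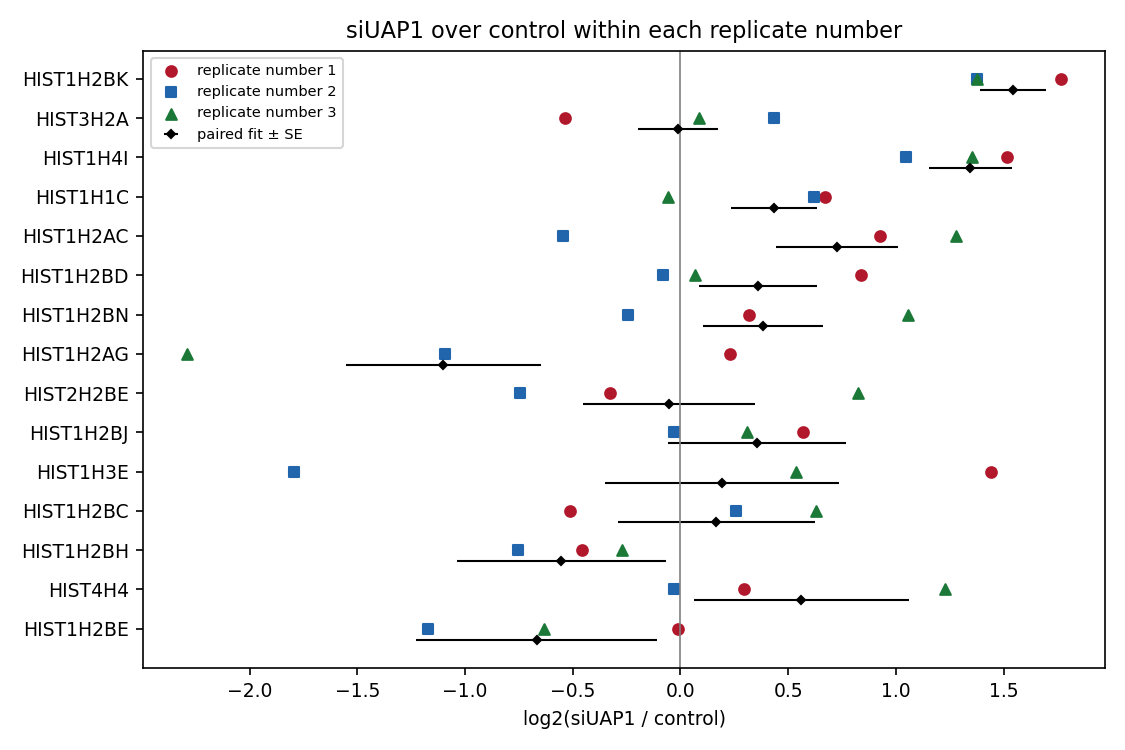
Log2 ratio of siUAP1 over control CPM within each replicate number (colored points) for the 15 tested histone cluster genes, with the fold change of the fit within replicate numbers (black, ± SE). HIST1H2BK and HIST1H4I are the genes with all 3 ratios above 1 on the log2 scale.

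Of the remaining H2B genes, HIST1H2BD had 2.79 ± 2.36 FPKM in siUAP1 and 1.98 ± 0.935 FPKM in control libraries (SD, n = 3 each), with a log2 fold change of 0.36 within replicate numbers (edgeR adjusted p = 0.432). HIST1H2BN, whose long annotation of 5477 bases covers HIST1H2AL on the same strand and HIST1H2AK on the other, had 0.38 (edgeR adjusted p = 0.411), and reads shared with these genes cannot be assigned with certainty. HIST1H2BE was the lowest H2B gene, at -0.67 (SE 0.56, edgeR adjusted p = 0.486) with 10, 2 and 8 counts in siUAP1 libraries and 9, 7 and 13 in control libraries. HIST2H2BE (-0.05) and HIST1H2BH (-0.55) were also not called. The single H3 gene tested, HIST1H3E, had 40, 5 and 10 counts in siUAP1 libraries and 12, 22 and 6 in control libraries, which gave 0.19 (SE 0.545, edgeR adjusted p = 0.867). HIST4H4, the other H4 gene tested, had 17, 9 and 15 counts in siUAP1 libraries and 12, 9 and 5 in control libraries, with 0.56 (SE 0.499, edgeR adjusted p = 0.518). The standard errors of these genes of under 100 counts were 0.456 to 0.56, and a difference of the size of the SE would not be detectable at this depth.

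Untested members had few counts in every class. HIST2H2AC and HIST1H3C ranked 9 and 10 by FPKM, which divides by their short length. HIST2H2AC had 6, 7 and 2 counts in siUAP1 libraries against 2, 7 and 11 in control libraries, and HIST1H3C had 13, 4 and 2 counts in siUAP1 libraries against 1, 1 and 5 in control libraries. HIST1H3J had 14 counts in siUAP1 replicate 1 and none in any other library. Of the genes known mainly from the testis, HIST1H1T, HIST1H2AA and HIST1H2BA were at 0 in all 6 libraries, and HIST3H3 had 4, 3 and 0 counts in siUAP1 libraries against 0, 0 and 1 in control libraries. Of the 14 genes at 0, 4 share every 100-base window with another gene, so that their reads cannot be assigned to a single gene, and 6 share none. The others, HIST1H2AD, HIST1H2AJ, HIST1H2AM and HIST2H4A, share 97.6%, 80.9%, 84.0% and 94.9% of their windows. HIST2H3A and HIST2H3C are copies of each other, and HIST1H3D overlaps AL031777.3 on the same strand, which had 56 counts.

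**Figure D4:**
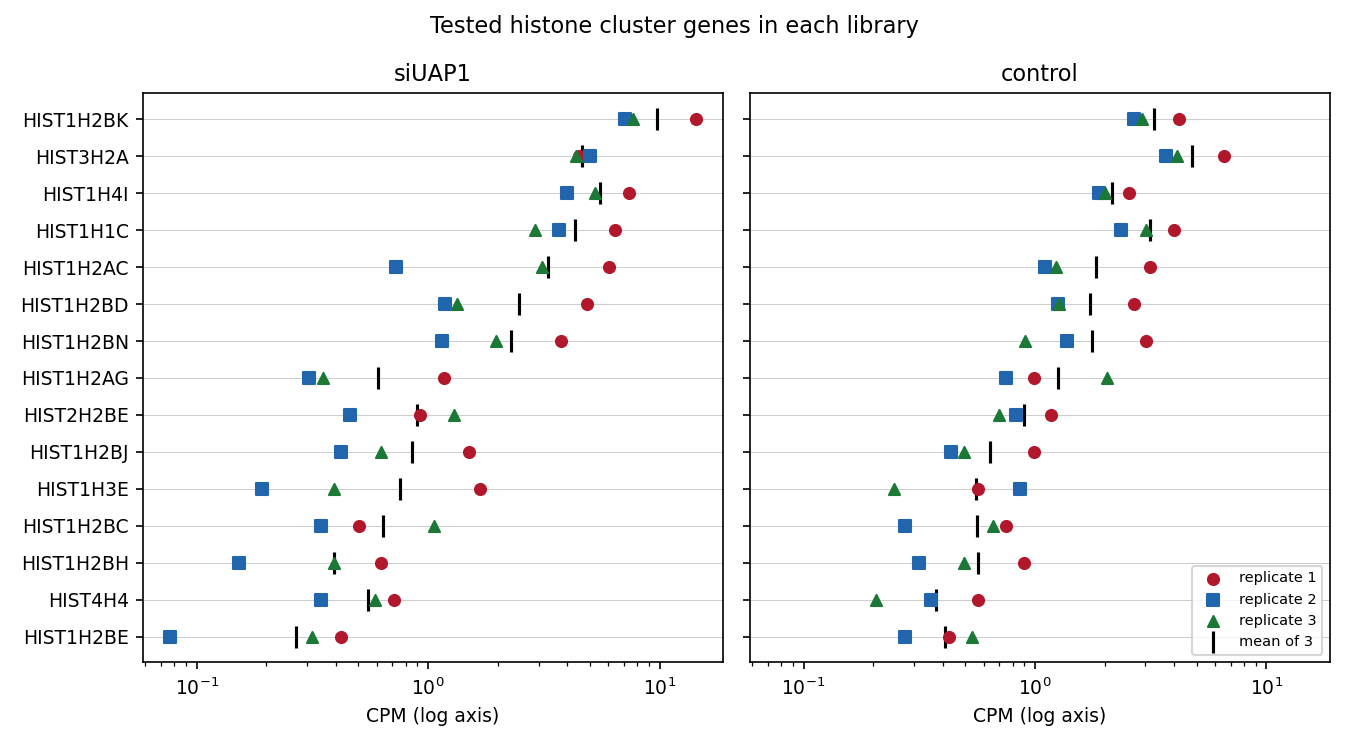
CPM (logarithmic axis) of the 15 tested histone cluster genes in siUAP1 libraries (left) and control libraries (right), with a symbol for each replicate number and a bar at the mean of 3. HIST1H3E, HIST1H2BH, HIST4H4 and HIST1H2BE passed the filter on low counts only with the replicate 1 libraries. Leaving these aside, replicate 1 is the rightmost point for most genes in both panels. HIST1H2BK averages 9.74 CPM in siUAP1 and 3.26 CPM in control libraries.

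More members were called between replicate numbers than between siRNA groups. In the fit with both terms, 7 of the 15 (HIST1H1C, HIST1H2AC, HIST1H2BD, HIST1H2BJ, HIST1H2BK, HIST1H2BN and HIST1H4I) differed between replicate numbers, where 45.9% of all tested genes did, so that the count itself is near the background. Without the group in the fit only HIST1H2BD was called, and DESeq2's likelihood ratio test called 4 (HIST1H2AC, HIST1H2BD, HIST1H2BK and HIST1H2BN). The share of all genes called in these other fits is not given here, so these counts cannot be read against a background. Of the 15, 4 (HIST1H3E, HIST1H2BH, HIST4H4 and HIST1H2BE) passed the filter on low counts only with the replicate 1 libraries, so their direction is not counted. Of the 11 that passed without these libraries, 11 were lower in replicate 2 than in replicate 1 and 10 lower in replicate 3 than in replicate 1, where 48.9% and 49.1% of all genes that passed were lower. Their median log2 difference was -1.004 for replicate 2 and -0.76 for replicate 3, each against replicate 1, and that of all such genes was 0.00787 and 0.00688. HIST1H2BC was the exception, at 0.44 in replicate 3 over 1. This choice of genes was made after seeing the data.

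HIST1H2AC had the largest difference of replicate 2 from replicate 1 among the tested members, with a mean of 0.914 CPM in replicate 2 and 2.17 CPM in replicate 3, against 4.61 CPM in replicate 1 (log2 -2.26 and -1.11, edgeR adjusted p = 5.24e-05). HIST1H2BD averaged 1.22 and 1.30 CPM in replicates 2 and 3, against 3.77 CPM in replicate 1 (log2 -1.59 and -1.51, edgeR adjusted p = 0.000218). HIST1H2BK, HIST1H4I and HIST1H1C differed less, by -0.88, -0.71 and -0.78 in replicate 2 over 1. HIST3H2A, at -0.33 and -0.37, did not pass the test (edgeR adjusted p = 0.298). What the replicate numbers stand for is not given in the labels. Library names of both groups share a code within each replicate number, whose meaning is not given either.

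Genes of the cell cycle went the other way between replicate numbers. The 42 S-phase genes, which encode replication factors and their regulators, summed to 2771, 3731 and 3531 CPM in siUAP1 libraries, against 3098, 3733 and 3879 CPM in control libraries. The 20 G2/M genes, which act in mitotic entry and division, summed to 2643, 3437 and 3268 CPM in siUAP1 libraries, against 2863, 3569 and 3706 CPM in control libraries. Both sums were lowest in replicate 1 of each group, where the histone cluster sum was highest. The S-phase median was 0.35 in replicate 2 and 0.35 in replicate 3 over replicate 1, and 38 of 42 genes differed between numbers, where 45.9% of all tested genes did. Whether cycling plays a part in the histone values was not tested.

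**Figure D5:**
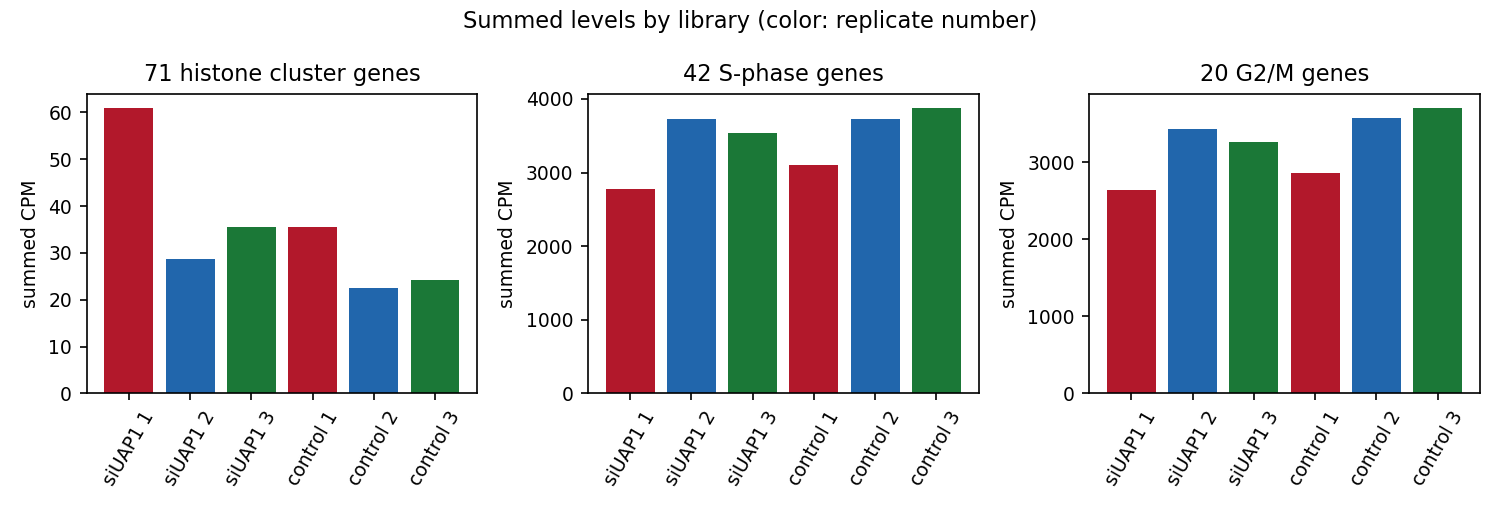
Summed CPM in each library of the 71 histone cluster genes, 42 S-phase genes and 20 G2/M genes, siUAP1 replicates left of control replicates and colored by replicate number. Replicate 1 of each group is the highest for the histone cluster genes (61.0 CPM in siUAP1, 35.5 CPM in control) and the lowest for the S-phase genes (2771 CPM in siUAP1, 3098 CPM in control).

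Genes that act with the cluster histones were compared by the same fits, and none of the 121 tested passed by group alone in edgeR, DESeq2 or limma (2 had an unadjusted p under 0.05 in edgeR). The calls within replicate numbers are read against 9.07% of all tested genes called higher and 7.14% lower, 16.2% in all. Of 42 S-phase genes, 10 were lower in siUAP1 cells and none higher, with a median log2 fold change of -0.10. Among them were TYMS, thymidylate synthase (-0.26, SE 0.0542, edgeR adjusted p = 0.00132), the helicase subunit GINS2 (-0.35) and the clamp loader subunit RFC3 (-0.23), whose calls were each lost without replicate number 3. RFC3 was also not called by DESeq2 with the pairs. The replication initiation factor MCM10 was at -0.36 (edgeR adjusted p = 0.00751), with -0.83, -0.11 and -0.20 in the 3 replicate numbers, and was not called without number 1 (-0.16, edgeR adjusted p = 0.186) or by DESeq2 (adjusted p = 0.334). Of 20 G2/M genes, 7 were lower and none higher (median -0.10, beside the same 7.14% called lower over all genes). They included CDK1 (-0.24), called in all 8 settings with the pairs, and MKI67 (-0.21), CDC20 (-0.21) and UBE2C (-0.20), not called without number 3.

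Of 10 tested histone genes outside the clusters, 2 were called higher and 2 lower, beside the background of 9.07% and 7.14%. The genes of this list are known to make polyadenylated mRNA. H3F3B, which encodes the replacement histone H3.3, was at 296.6 ± 43.9 CPM in siUAP1 and 383.3 ± 49.95 CPM in control libraries (SD, n = 3 each), with a log2 of -0.37 (SE 0.0462, edgeR adjusted p = 1.87e-06 within replicate numbers, 0.587 by group). H2AFX, the variant phosphorylated at DNA breaks, fell by 0.23 on the log2 scale (edgeR adjusted p = 0.00407). The linker variants H1F0 and H1FX rose by 0.29 and 0.24 (edgeR adjusted p = 0.000988 and 0.0067). Without replicate number 1, H2AFX and H1FX were not called (edgeR adjusted p = 0.0598 and 0.0553). H1FX was also not called by DESeq2 with the pairs. The summed level of the list was 1215, 1419 and 1537 CPM in siUAP1 libraries, against 1308, 1473 and 1626 CPM in control libraries.

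SLBP, the stem-loop binding protein, was at 314.7, 382.9 and 401.6 CPM in siUAP1 libraries, against 337.8, 377.2 and 444.4 CPM in control libraries. The groups overlapped (log2 -0.08, SE 0.0474, edgeR adjusted p = 0.322 within replicate numbers). Of 26 genes of histone mRNA 3′ processing, 1 was called higher and 1 lower, beside 16.2% of all genes called in either direction. NCBP1, the large cap-binding subunit, was lower (-0.23, edgeR adjusted p = 0.00366). CPSF2, a subunit of the cleavage complex, was at 0.14 with an edgeR adjusted p of 0.0495, and was called in 2 of 8 settings with the pairs, where its adjusted p ran from 0.0442 to 0.213. Of 24 histone chaperones and deposition factors, 1 was called higher and 4 lower, near the 16.2% of all genes. ATRX, which acts in H3.3 deposition, was the one higher (0.14, edgeR adjusted p = 0.0411). With the pairs, ATRX was not called without a filter on low counts, by DESeq2, or without number 2 or number 3. Those lower were NASP, a carrier of H3 and H4 (-0.22, edgeR adjusted p = 0.00151), the CENP-A chaperone HJURP (-0.23), RBBP7 (-0.14) and the FACT subunit SSRP1 (-0.14). NASP was called in all 8 settings with the pairs, HJURP not without number 3, and RBBP7 and SSRP1 were not called once the libraries of any 1 of the 3 numbers were left out. SSRP1 was also not called with the pairs and no filter on low counts.

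The 8 cluster genes known from other cells to make polyadenylated mRNA were all tested. Within replicate numbers HIST1H2BK was called higher and the rest were not called, beside 9.07% of all tested genes called higher and 7.14% lower. A count of 1 in 8 is near that background. HIST4H4, among the 8, passed the filter on low counts only with the replicate 1 libraries. The median log2 fold change of the 8 was 0.40 within replicate numbers, against 0.36 for all 15 tested members, these 8 among them. They summed to 39.4, 18.9 and 21.9 CPM in siUAP1 libraries, against 23.3, 12.7 and 13.9 CPM in control libraries. Their share of the histone cluster counts was 64.6%, 65.9% and 61.6% in siUAP1 libraries, against 65.6%, 56.6% and 57.6% in control libraries.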

How the data were processed

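The authors deposited raw counts per gene and FPKM per gene for the 6 libraries. The submitters' processing notes name GRCh38.p12 and DESeq2, while the sources used here give no aligner, counter or strand setting. Samples were grouped by their titles. No label states whether replicates were separate cultures, and p-values measure only the spread of these libraries, which can be technical. Within groups, pairs of libraries differed beyond counting noise, with 23.9 to 41.3 chi-square units per degree of freedom over genes of at least 20 counts.

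From the counts, genes were tested with edgeR 4.0.16 (R 4.3.3): filterByExpr (minimum 10) left 15768 genes, library sizes were scaled by TMM, a quasi-likelihood model with group alone was fitted, and p-values were adjusted by Benjamini-Hochberg across those genes, with 0.05 as threshold. Within-number ratios used log CPM with a prior count of 2. Deviations from group means correlated at 0.552, 0.454 and 0.584 between libraries of the same number, each over a limit of 0.1. The replicate numbers of the titles were therefore taken to pair the libraries. Between other libraries the correlations were -0.434 to -0.0893. Taking deviations from group means pushes these down when those of the same number are positive, so they add no separate support for pairing. The steps were tested on simulated data.

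The members and lists were chosen with earlier results of these data known. Genes named were members called with or without the pairs, the 10 of highest FPKM, the most abundant and the extreme fold changes of each class, head-to-head pairs and up to 4 genes per list; SLBP, ATRX, HIST1H2BN, HIST2H2BE, HIST1H2BH, HIST1H3J, HIST1H2AH and the genes at 0 were added after their values were seen. Stem-loops and shared 100-base windows were read from GENCODE 29, and promoters from RefSeq. Alternatives were other scalings and filters, the pairs, DESeq2 1.42.0, limma 3.58.1 on log2(FPKM + 1) or log2(FPKM + 0.1), and leaving out libraries.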

Additional observations from a re-analysis of the deposited data

How the results depend on the processing

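HIST1H2BK and HIST1H4I kept their direction in every setting. Both were called in all 8 settings with the replicate block (log2 1.40 to 1.61 and 1.24 to 1.47), and without it by 2 of 15 and 2 of 14 settings, DESeq2 and the fit without a filter. Members called, 0 by group alone, were 2 without the filter, with DESeq2, with the replicate block, and with the block and RLE scaling, library totals or DESeq2. They were 4 with the block and no filter (chosen after seeing the data, adding HIST1H2AC and HIST1H2AG), and 2 to 3 with the block when a replicate number was left out (adding HIST1H2AG without number 1 and HIST1H2AC without number 2).

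All genes called, 17 by group alone, were 273 without the filter, 165 with DESeq2, 2, 3 and 1 with limma on FPKM (pseudocount 1, 0.1, and 1 unfiltered) and 1 to 3 without a library. With the replicate block they were 2556, with RLE scaling 2539, library totals 2587, no filter 2469 (added later), DESeq2 1311, and without number 1, 2 or 3, 2204, 1987 and 1195. Genes of the related lists called, 0 by group alone, were 28 with the block, 27 with RLE scaling, 29 with library totals, 24 without the filter (added later), 17 with DESeq2 and 8 to 28 without a number. Members differing between replicate numbers, 7 with the group in the fit, were 1 without it (HIST1H2BD) and 4 with DESeq2's likelihood ratio test. The share of all genes is given for the first of these fits alone (45.9%). The log2 ratio of the summed level, 0.61, was 0.83 in FPKM, 0.12 for H2A, 1.12 for H4, 0.27 without HIST1H2BK and HIST1H4I (added later) and 0.23 to 0.84 without a library. The causes were not tested.

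Fold changes of uncalled genes turned round when libraries were left out one at a time. They ran from -0.45 to 0.95 for HIST1H2BD (lowest without siUAP1 replicate 1, highest without control replicate 1), from -0.27 to 0.87 for HIST1H2BJ (the same libraries) and from -0.93 to 0.89 for HIST1H3E (without siUAP1 replicate 1 and control replicate 2). They ran from -0.38 to 0.30 for HIST2H2BE (without siUAP1 replicates 3 and 2), and from -0.39 to 0.49 for HIST1H2BC (without siUAP1 replicates 3 and 2). HIST1H2BN was at -0.17 without siUAP1 replicate 1 and HIST3H2A at 0.24 without control replicate 1. HIST2H2BE was at 0.22 without control replicate 1, HIST1H2BC at -0.15 without control replicate 2, and SLBP at 0.0226 without siUAP1 replicate 1 and 0.0333 without control replicate 3. With the block, HIST3H2A, HIST2H2BE and HIST1H2BD were at 0.27, 0.11 and -0.0053 without number 1, HIST2H2BE at 0.27 without number 2 and HIST1H2BC at -0.20 without number 3.

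With 5028 counts over 71 genes, depth limited the test to 15 of them.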
